A study of Mus musculus with 16 samples.

Results

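The immunoglobulin heavy-chain variable genes (Ighv) were examined in BCR-ABL1p185+ transformed mouse pro-B cell lines with and without Cdk8. All annotated genes whose mouse symbol starts with Ighv were taken, which gave 185 of the 50686 genes in the count files. The RNA-seq libraries came from 4 control lines, labelled wildtype and described in the study's methods as Cdk8 fl/fl, and 4 Cdk8 KO lines, in which Vav-Cre, active in blood-forming cells, had deleted Cdk8. All 8 lines were derived from C57BL/6N bone marrow by retroviral transfer of BCR-ABL1p185, and each is a culture rather than a tumour. Every line gave 2 libraries, 1 after 48 h in the solvent DMSO and 1 after 48 h in 1 µM senexin B, an inhibitor of the kinases CDK8 and CDK19. The lines are named here by genotype and replicate number.

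A heavy-chain variable region is assembled in developing B cells by V(D)J recombination, in which RAG1 and RAG2 first join a D to a J segment and then a V gene to the DJ segment. Before recombination, unrearranged V genes are transcribed at low levels, which is called germline transcription. After recombination, the promoter of the chosen V gene drives the rearranged gene, so a population grown from few founder cells can be dominated by the V gene of its founder. Families lie roughly in order along the locus. Ighv5 and Ighv2 start nearest the D segments and are called proximal here, whereas Ighv1 and Ighv8 reach farthest away and are called distal. All other families are called middle. These classes overlap in position: they lie 143 to 890 kb, 174 to 1135 kb (middle) and 903 to 2580 kb (distal) from the J segments. Ighv6-3, of a middle family, lies at 114391712, beyond the start of the nearest distal gene at 114332796. The files count reads on annotated exons, so a germline transcript and a rearranged transcript of the same V gene cannot be told apart, nor can sense and antisense reads, since no strand was used in counting. In these bulk cultures, fewer cells that use a V gene and less RNA per cell cannot be told apart either.

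The members span 2437 kb of chromosome 12 (GRCm38), from 113572927 to 116010093, and 183 of the 185 are on the minus strand. GENCODE M21 types 113 of them as IG_V_gene, 70 as IG_V_pseudogene and 2 otherwise. The 3 genes with the line-specific signal below are shown by the ends of their V exons, read 5′ to 3′ from the GENCODE M21 transcripts. Where in a gene its reads fell is not known from the counts. The 9 bases in capitals are the pair of codons before the conserved cysteine and the cysteine codon itself, close to where a V gene is joined to DJ.
Ighv8-7, chr12:115258136-115258432, minus strand: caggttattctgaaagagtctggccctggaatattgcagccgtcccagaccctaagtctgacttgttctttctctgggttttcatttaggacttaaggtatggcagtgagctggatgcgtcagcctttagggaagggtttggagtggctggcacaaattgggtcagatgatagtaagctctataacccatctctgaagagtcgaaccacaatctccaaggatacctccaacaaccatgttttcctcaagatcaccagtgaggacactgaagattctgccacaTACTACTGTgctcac
Ighv5-15, chr12:113826646-113826945, minus strand: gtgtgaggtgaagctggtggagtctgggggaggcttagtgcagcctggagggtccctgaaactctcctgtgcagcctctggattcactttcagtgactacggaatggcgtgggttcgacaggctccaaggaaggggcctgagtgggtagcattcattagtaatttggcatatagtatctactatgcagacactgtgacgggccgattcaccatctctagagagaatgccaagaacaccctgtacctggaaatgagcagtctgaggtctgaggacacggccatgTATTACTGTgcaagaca
Ighv7-1, chr12:113896408-113896707, minus strand: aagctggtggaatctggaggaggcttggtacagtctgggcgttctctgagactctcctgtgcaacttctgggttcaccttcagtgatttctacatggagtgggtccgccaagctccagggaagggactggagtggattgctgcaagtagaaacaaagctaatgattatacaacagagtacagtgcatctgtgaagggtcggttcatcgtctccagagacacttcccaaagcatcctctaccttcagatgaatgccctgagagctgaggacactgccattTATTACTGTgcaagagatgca
Ighv8-7 is a single 297-base exon that GENCODE types as a pseudogene, and the reading frame of its marked codons holds 1 stop codon in the stretch shown. The stretches of Ighv5-15 and Ighv7-1 hold 0 stop codons in that frame. Over their last 280 bases, Ighv8-7 was 61.1% identical to Ighv5-15 and 60.4% identical to Ighv7-1. The nearest relative of Ighv8-7 was Ighv8-8 at 85.4%, that of Ighv5-15 was Ighv5-17 at 90.4%, and that of Ighv7-1 was Ighv7-3 at 87.9%. Of all 50-base windows of their transcripts, the read length of the libraries, 91.5% of those in Ighv8-7, 88.0% of those in Ighv5-15 and 100% of those in Ighv7-1 occurred in no other annotated transcript on either strand.

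The genes that gave counts in every library are shown by their last 60 bases, with the same codons in capitals.
Ighv6-3, chr12:114391712-114391771, minus strand: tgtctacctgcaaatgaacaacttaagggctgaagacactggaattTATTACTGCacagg
Ighv1-57, chr12:115268424-115268483, minus strand: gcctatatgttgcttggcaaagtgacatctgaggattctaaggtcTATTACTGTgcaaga
Ighv1-58, chr12:115312166-115312225, minus strand: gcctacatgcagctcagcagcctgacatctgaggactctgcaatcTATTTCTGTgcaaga
Ighv6-3 carries TATTACTGC and Ighv1-58 carries TATTTCTGT, while Ighv1-57, a pseudogene in GENCODE, carries TATTACTGT as Ighv5-15 and Ighv7-1 do.

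Libraries held 13145876 to 18349425 counts, so a gene at 0 counts can have a level of up to 0.163 to 0.228 counts per 1000000 (CPM), the limit that 3 counts set. Cdk8 itself, counted over all its exons, had 61.7 to 68.6 CPM in the control lines and 35.3 to 51.99 CPM in the Cdk8 KO lines under DMSO, and 55.1 to 89.2 against 41.1 to 61.7 CPM under senexin B, where the ranges overlap. The deleted exons were not counted apart. All 12 pro-B and pre-B markers, Pax5 among them, were above 1 CPM in every library. So were 4 of 5 plasma cell markers and 3 of 5 mature B markers, among the latter Cd22 at 19.1 to 226 CPM. The summed level per library was 0.440 to 24.7 CPM for 6 myeloid markers, with Elane at 0 in all libraries, 0.160 to 1.49 CPM for 4 erythroid markers, and 17.6 to 134 CPM for 6 T cell markers, of which Cd3e had at most 1 count and only Lck was above 1 CPM in every library. The libraries with the same number within a genotype belonged together: across 14126 genes, their deviations from the group means correlated at 0.582 to 0.869 in all 8 pairs.

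Cdk8 KO lines 3 and 4 are given as separate replicates, yet the same 2 Ighv genes led in both. In other genes they differed. Y-linked Kdm5d had 0 and 1 counts in line 3 and 798 and 883 counts in line 4. Uty, also on the Y chromosome, had 3 and 1 counts in line 3 and 387 and 388 counts in line 4. Y-linked Ddx3y had 1 and 3 counts in line 3 and 440 and 533 in line 4. Y-linked Eif2s3y was low in line 4 too, at 26 and 16 counts, with 1 and 0 in line 3. It had 496 to 980 counts in control lines 3 and 4 and Cdk8 KO line 1. The T cell receptor gamma segment Trgj2 had 0 and 1 counts in line 3 and 103 and 82 counts in line 4. Xist was low in both, at 16 and 31 counts in line 3 and 14 and 33 in line 4. Genome-wide, the deviations of line 3 and line 4 libraries correlated at 0.100 to 0.232 over 4 pairs, against 0.770 within line 3, 0.855 within line 4 and below 0 for every other pair of Cdk8 KO lines, where deviations from a mean of 4 lines tend to be opposed. The sex-linked genes and Trgj2 were chosen after their values were seen. Where the shared counts come from was not tested, and results that rest on them are also given without them.

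Most Ighv genes were silent or nearly so. Of the 185 members, 98 had 0 counts in all 16 libraries, of which 50 were typed as functional V genes and 46 as pseudogenes. Another 87 had at least 1 count somewhere, 24 of them in a single line, and 16 reached 10 counts in at least 1 library. The total over all members was 26 to 2446 counts per library, and 11 to 50 genes per library had a count. Ighv8-7, Ighv5-15 and Ighv7-1 together took 81.6% of all Ighv counts in the series. For scale, Ighm, the constant gene that ends both rearranged and unrearranged heavy-chain transcripts, had 22491 to 88505 counts, and the libraries held 0.324 to 45.9 Ighv counts per 1000 Ighm counts.

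**Figure D1:**
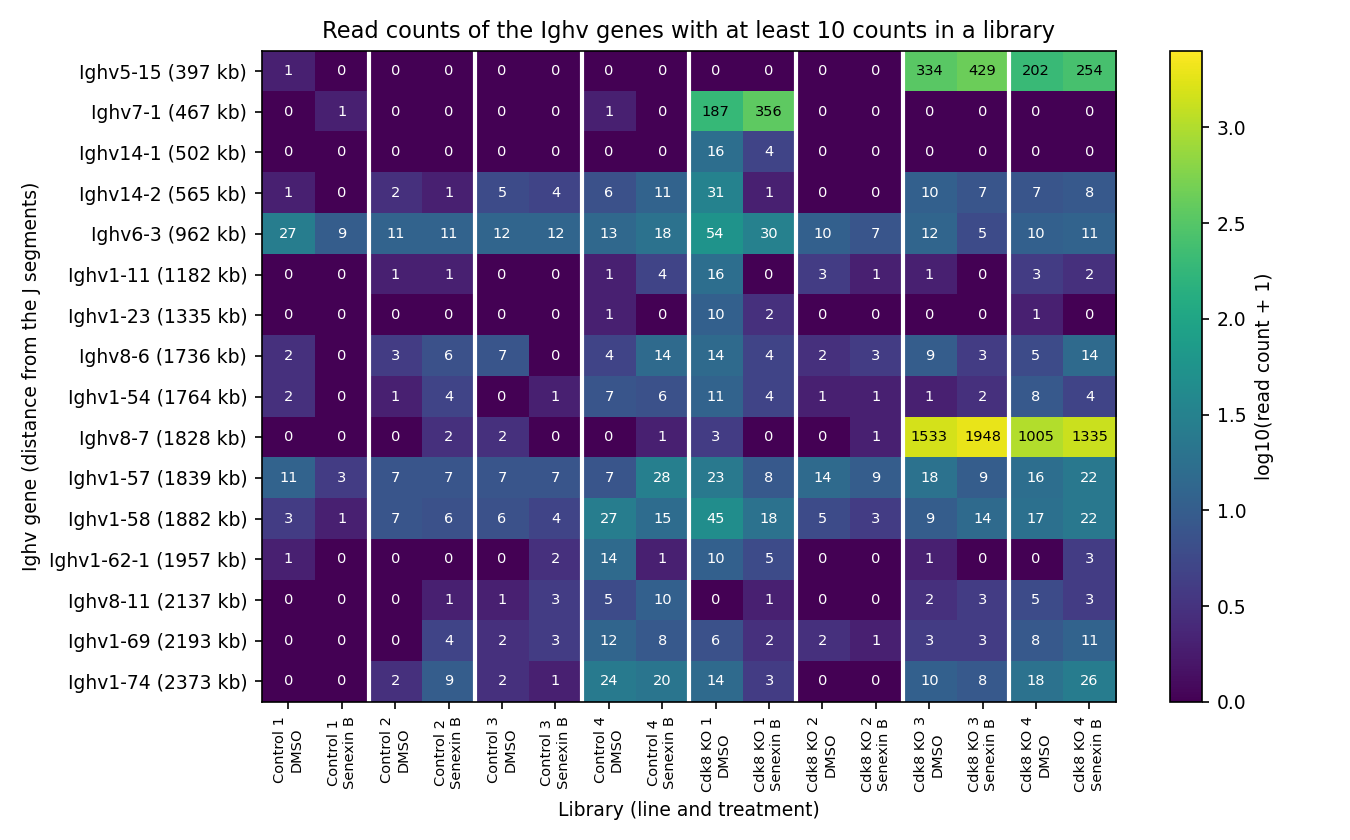
Heat map of read counts (printed in each cell, colour as log10 of the count + 1) for the 16 Ighv genes with at least 10 counts in a library; columns are libraries, rows run by distance in kb from the J segments. Ighv8-7 and Ighv5-15 stand out in Cdk8 KO lines 3 and 4 and Ighv7-1 in Cdk8 KO line 1, whereas Ighv6-3, Ighv1-57 and Ighv1-58 have counts in all 16 libraries.

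The genes with the most counts were each seen in 1 or 2 lines. Ighv8-7, a distal pseudogene 1828 kb from the J segments, had 1533 counts under DMSO and 1948 under senexin B in Cdk8 KO line 3, and 1005 and 1335 counts in line 4. In the other 12 libraries it had 0 to 3 counts, and 7 of these were at 0. Ighv5-15, a proximal gene 397 kb from the J segments, had 334 and 429 counts in line 3 and 202 and 254 in line 4, against a single count in the other 12 libraries together. The groups of libraries with and without these genes were far apart, and no library fell between them. Per kb of exon, Ighv8-7 was 5.52 to 6.39 times as abundant as Ighv5-15 in the 4 libraries. Its share of the 2 genes' counts was 82.1% (95% exact Clopper-Pearson interval 80.3 to 83.8) and 82.0% (80.3 to 83.5) in line 3, and 83.3% (81.0 to 85.3) and 84.0% (82.1 to 85.8) in line 4. These intervals, like all here, cover counting error only. Together the 2 genes made up 89.1% to 97.2% of Ighv counts in these libraries. The level of Ighv8-7 was 249 to 398 CPM per kb, which is 17.0% to 23.2% of the level of Ighm per kb in the same libraries. In the 4 control lines and Cdk8 KO line 2, the leading Ighv gene was at 0.0594% to 0.336% of Ighm per kb.

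In Cdk8 KO line 1 the leading gene was Ighv7-1, a functional gene of a middle family, 467 kb from the J segments. It had 187 counts under DMSO and 356 under senexin B, or 11.7 and 20.4 CPM. No other library had more than 1 count of it. Its share of Ighv counts was 35.9% (31.8 to 40.2) under DMSO and 75.6% (71.4 to 79.4) under senexin B, and these intervals do not overlap. The shift came with lower counts of the other genes: all members except Ighv7-1 had 334 counts in 49 genes under DMSO and 115 counts in 35 genes under senexin B. Ighv14-2 had 31 and 1 counts, Ighv14-1 had 16 and 4, Ighv1-11 had 16 and 0, and Ighv1-58 had 45 and 18. The same line had 282 CPM of Dntt, the terminal transferase that adds bases at V(D)J joints, under DMSO and 51.7 CPM under senexin B, and 17.8 and 4.07 CPM of Rag1. Their part in the shift was not tested, and with 1 library per condition the shift within this line has no replicate.

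A small set of genes was present in all 8 lines at low level. Ighv6-3, a functional gene of a middle family, had 5 to 54 counts, Ighv1-57 had 3 to 28, and Ighv1-58, a functional distal gene, had 1 to 45. They were the only 3 members with a count in both libraries of every line. Ighv6-3 led by counts per kb in 6 libraries, those of control lines 1, 2 and 3, with 27 and 9 counts, 11 and 11 counts, and 12 and 12 counts. Its share there ranged from 16.2% (8.36 to 27.1) to 38.6% (27.2 to 51.0). Ighv1-57 led in both libraries of Cdk8 KO line 2 with 14 and 9 counts. Control line 4 was the only line without a common leader: Ighv1-58 led under DMSO with 27 counts and Ighv1-57 under senexin B with 28 counts, while the next gene, the distal Ighv1-74, had 24 and 20. Without the 3 line-specific genes, Ighv6-3, Ighv1-57 and Ighv1-58 took 26.6% to 59.4% of the remaining Ighv counts, with a median of 41.4% over the 16 libraries. Their summed level of 0.935 to 7.60 CPM was highest in the DMSO library of Cdk8 KO line 1. Sequence limits bear on some members. The share of 50-base windows unique among annotated transcripts was 54.6% for Ighv14-1, 59.7% for Ighv1-74, 59.9% for Ighv1-69, 62.9% for Ighv14-2 and 74.8% for Ighv8-6. It was 86.0% for Ighv6-3, 95.7% for Ighv1-58 and 100% for Ighv1-57. Ighv14-2 was 96.8% identical to Ighv14-1 over the last 280 bases, and how reads matching both were counted is not known.

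The evenness of Ighv use differed accordingly. The effective number of genes, the inverse of the summed squared shares, was 5.06 to 14.8 in the control libraries. It was 6.98 and 9.53 in Cdk8 KO line 2, 6.32 and 1.73 in line 1, and 1.504 to 1.72 in lines 3 and 4. The libraries of Cdk8 KO line 2 thus lay within the range of the control libraries.

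Whether lines of a genotype differed by more than the 2 libraries of a line was tested for all genes with edgeR's quasi-likelihood F test. Of 15221 genes tested, 42.7% were called at an adjusted p under 0.05, since the lines differed widely. Of the members, 10 passed the filter on low counts and 7 were called. They were Ighv8-7 (adjusted p = 8.31e-07), Ighv5-15 (3.91e-05), Ighv7-1 (9.22e-05), Ighv1-58 (0.00156), Ighv1-74 (0.00306), Ighv6-3 (0.0149) and Ighv1-69 (0.0242). Ighv14-2, Ighv1-57 and Ighv8-6 were not called, with adjusted p of 0.0587, 0.310 and 0.329. A member enters this test through the lines in which it is high, so the share called is not a property of the gene family. With DESeq2's likelihood ratio test the calls of Ighv5-15 and Ighv7-1 were lost (adjusted p = 0.740 and 0.657) and Ighv14-2 was called (0.0105), which made 6 of 10, although no library of another line had more than 1 count of Ighv5-15 or Ighv7-1. Over all alternatives the adjusted p ran from 3.06e-28 to 0.740 for Ighv5-15 and from 1.31e-26 to 0.657 for Ighv7-1, lowest with no filter. Without both libraries of Cdk8 KO lines 3 and 4, 3 of 7 members tested were called, namely Ighv7-1, Ighv1-58 and Ighv1-74, against 4397 of 14854 genes, and the adjusted p of Ighv6-3 became 0.0532.

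The share of members with a count differed along the locus, with no test made of it. At least 1 count was found for 60 of 109 distal genes (55.0%), 17 of 43 genes of the middle families (39.5%) and 10 of 33 proximal genes (30.3%). The other 32 proximal genes besides Ighv5-15 had 0 to 4 counts in all per library, 33 counts over the whole series. Ighv5-2, also called VH81X, which is the functional gene nearest to D and often rearranged first in early B cells, had 1 to 4 counts in each library of the control lines and of Cdk8 KO line 1 and 0 counts in Cdk8 KO lines 2, 3 and 4, a difference that is within the limit 3 counts set for all but 1 library. The nearest member, Ighv5-1, and the farthest, Ighv1-86, 2580 kb from the J segments, had 0 counts in all libraries. Distal families held 14.9% to 87.1% of Ighv counts per library. The range was wide in both genotypes: 34.3% to 87.1% in control lines under DMSO, with control line 4 highest, and 40.1% to 83.5% in Cdk8 KO lines under DMSO. The mean distal share was 57.9% ± 21.8 (SD, n = 4) in control and 67.3% ± 20.1 (SD, n = 4) in Cdk8 KO lines under DMSO, and 58.8% ± 27.8 and 61.0% ± 32.2 under senexin B. These means differed by less than the spread between lines. In Cdk8 KO lines 3 and 4 the share rests on Ighv8-7. Without the leading gene of each library, the mean distal share of the Cdk8 KO lines under DMSO was 40.1% ± 20.8 (SD, n = 4), against 70.6% ± 11.8 in control lines. This step also took the middle-family gene Ighv6-3 out of control lines 1, 2 and 3. It left proximal families, mostly Ighv5-15, at 79.8% and 60.8% in Cdk8 KO lines 3 and 4 under DMSO. With all genes kept, Cdk8 KO lines 1 and 2 had distal shares of 40.1% and 64.0% under DMSO and 14.9% and 63.0% under senexin B.

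**Figure D2:**
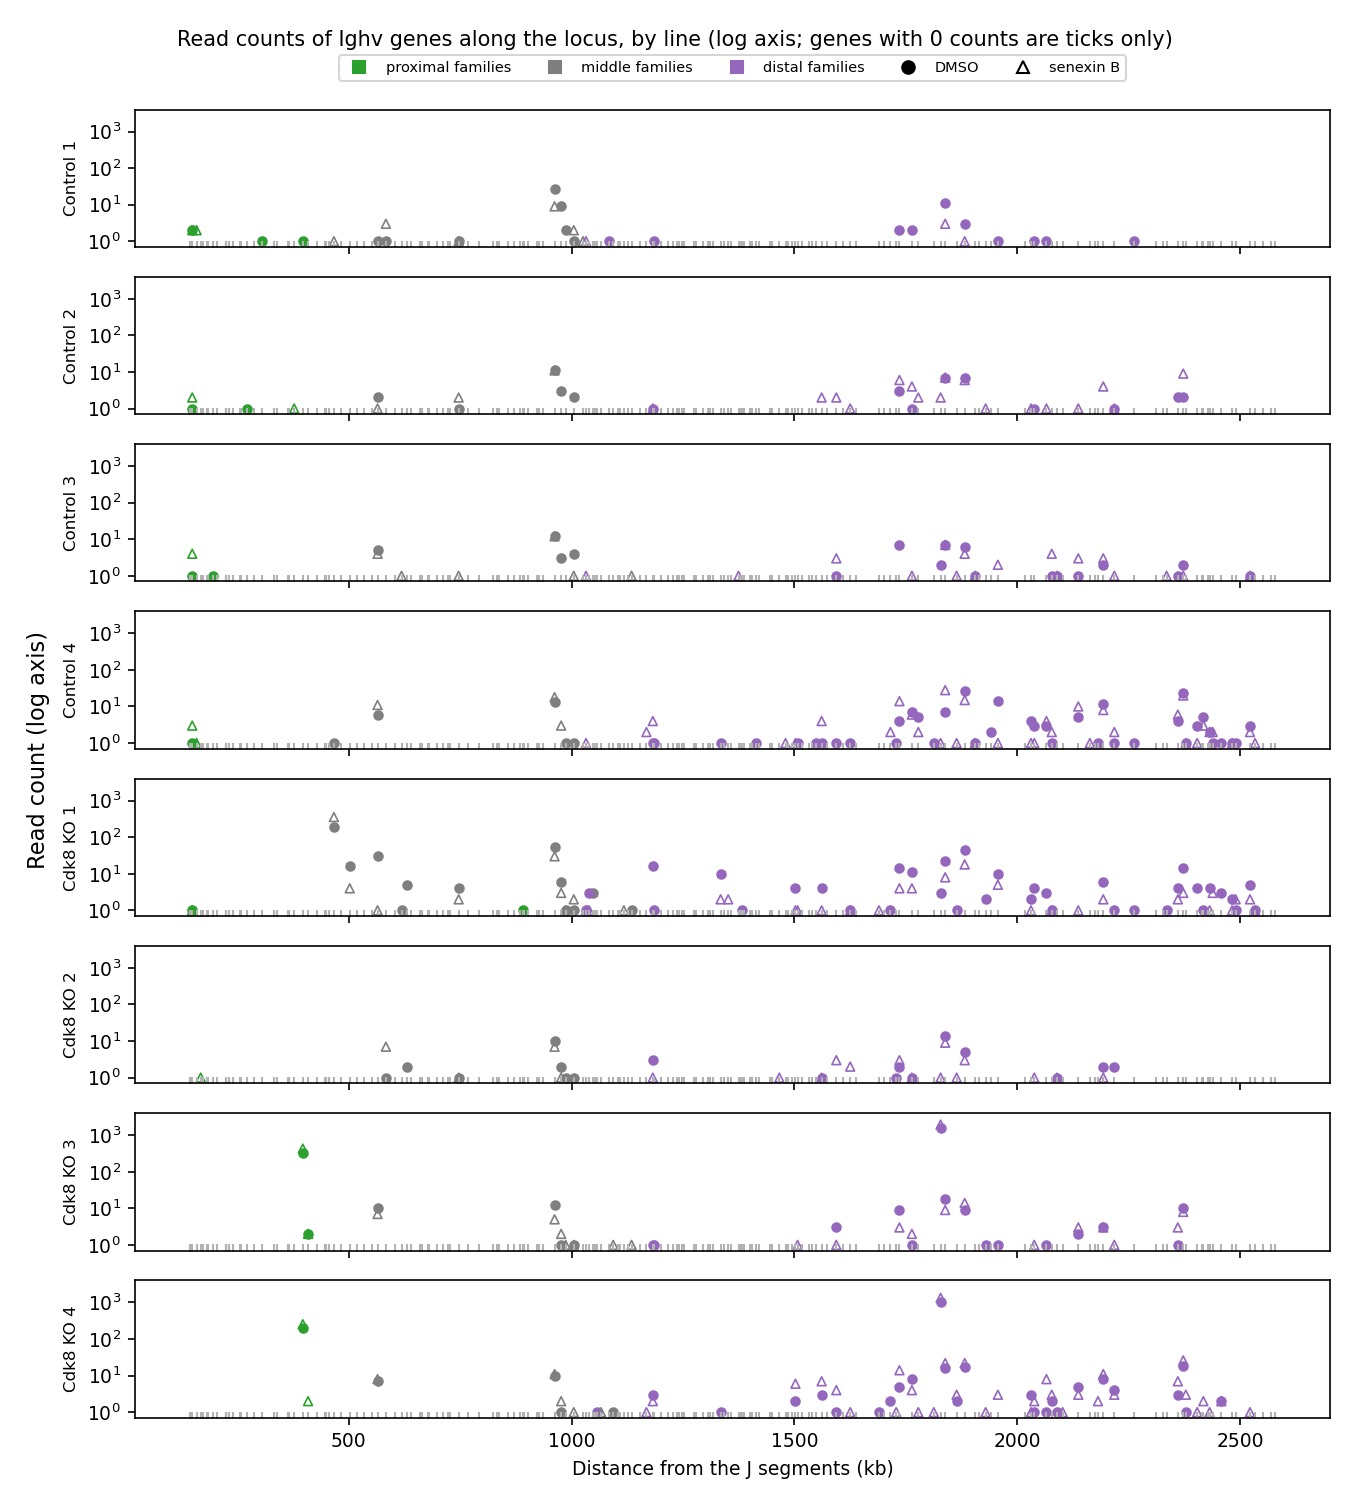
Read counts (log axis) of each Ighv gene by distance in kb from the J segments, 1 panel per line; filled circles are DMSO, open triangles senexin B, colours the proximal, middle and distal families, and grey ticks mark all members. Low counts spread over the distal families in control line 4 and Cdk8 KO lines 1 and 4, and the proximal stretch is nearly empty except for Ighv5-15 in Cdk8 KO lines 3 and 4.

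How far the Ighv profile of a line was kept between its 2 libraries differed between lines. The overlap of 2 profiles, the summed smaller share of each gene, was 97.9% for Cdk8 KO line 3 and 97.0% for line 4. It was 57.1% to 63.5% for the other 6 lines, 57.8% in Cdk8 KO line 1 among them, although 5 of these 6 had the same leading gene in both libraries. Between libraries of different lines it had a median of 16.8% over 108 pairs, with a range of 1.19% to 69.5%, while the 4 pairs of Cdk8 KO line 3 with line 4 overlapped by 91.7% to 94.3%. For 10 of the 16 libraries the most similar profile was that of the other library of the same line. For the other 6, of control lines 1, 2, 3 and 4 and Cdk8 KO line 2, it was a library of another line. A gene with most of the counts weighs most in this measure. Without the leading genes of both libraries, the overlap was 90.5% in Cdk8 KO line 3, 88.3% in line 4 and 35.2% to 69.5% in the other 6 lines, with a median of 58.7% over all 8 pairs. It was then 69.6% to 78.8% between Cdk8 KO lines 3 and 4 and had a median of 30.2% between other lines. In Cdk8 KO lines 3 and 4 this took out Ighv8-7 but left Ighv5-15. That gene held 334 of 421 and 429 of 498 remaining counts in line 3, and 202 of 332 and 254 of 449 in line 4. The overlaps within and between these lines without the leading gene therefore rest largely on Ighv5-15. With all genes but without Cdk8 KO lines 3 and 4, the median was 59.7% within lines and 43.9% between lines, and the ranges overlapped (57.1% to 63.5% and 15.5% to 69.5%). Pairs share libraries, so no p is given, and at 26 to 188 Ighv counts in the control libraries the overlap is limited by sampling.

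**Figure D3:**
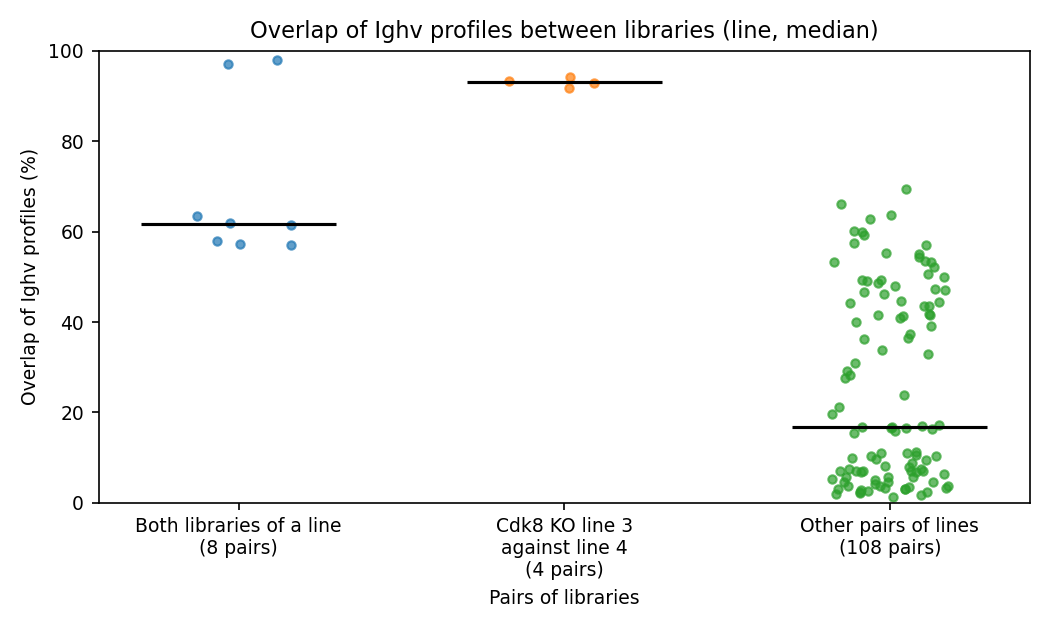
Overlap of Ighv profiles (percent) for pairs of libraries: both libraries of a line (8 pairs), Cdk8 KO line 3 against line 4 (4 pairs) and all other pairs of lines (108 pairs); points are pairs and horizontal lines are medians. Cdk8 KO lines 3 and 4 overlap each other by 91.7% to 94.3%, above every other pair from different lines.

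The summed Ighv level did not separate the genotypes. Under DMSO the control lines 1 to 4 had 4.04, 2.89, 3.16 and 12.4 CPM, and the Cdk8 KO lines 1 to 4 had 32.5, 3.13, 124 and 98.3 CPM. Under senexin B the values were 1.87, 5.56, 3.21 and 14.5 CPM in control lines and 27.0, 3.16, 148 and 124 CPM in Cdk8 KO lines. Cdk8 KO line 2 lay among the control lines in both conditions, and the other 3 Cdk8 KO lines lay above all of them. The means were 5.63 ± 4.57 (SD, n = 4) against 64.5 ± 56.2 CPM under DMSO and 6.27 ± 5.66 against 75.6 ± 71.3 CPM under senexin B. Without control line 4 the control means were 3.36 CPM under DMSO and 3.55 CPM under senexin B. Without the leading gene of each library the means were 4.44 ± 4.08 against 18.5 ± 11.1 CPM under DMSO and 5.19 ± 4.95 against 17.6 ± 15.2 CPM under senexin B. With Cdk8 KO lines 3 and 4 left out, the mean of the other 2 was 17.8 CPM under DMSO and 15.1 CPM under senexin B. Without the 3 line-specific genes, the level was 1.80 to 20.6 CPM, with the DMSO library of Cdk8 KO line 1 highest and both libraries of control line 4 and of Cdk8 KO line 4 between 9.56 and 14.4 CPM. Between the 2 libraries of a line, the summed level was higher under senexin B in 6 of 8 lines and lower in control line 1 and Cdk8 KO line 1. Of the 6, control line 3 and Cdk8 KO line 2 hardly moved. Their Ighv counts under DMSO and senexin B were 59 and 60 in control line 3 and 50 and 46 in Cdk8 KO line 2.

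**Figure D4:**
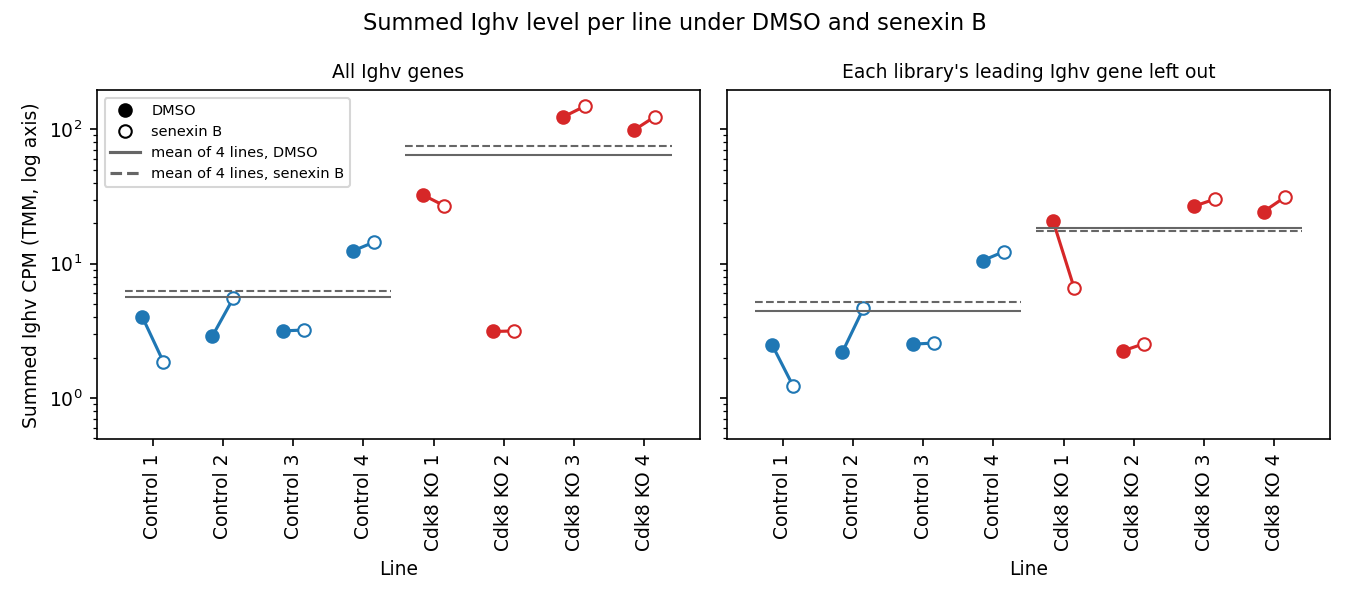
Summed Ighv level in TMM-normalized CPM (log axis) for each line under DMSO (filled) and senexin B (open), for all Ighv genes (left) and without the leading gene of each library (right); grey lines are the means of 4 lines. Cdk8 KO line 2 sits at 3.13 and 3.16 CPM among the control lines, and Cdk8 KO lines 3 and 4 sit at 98.3 CPM or more in the left panel.

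The study asked which genes depend on Cdk8 and on senexin B. No Ighv gene passed the limits of its methods, an adjusted p under 0.05 and a fold above 2, in any comparison, with edgeR or with DESeq2. The study reported many more genes for Cdk8 loss than these fits called. It also gives a looser limit on adjusted p for its heat map and pathway analysis. These fits therefore do not reproduce its calls. For Cdk8 KO against control lines under DMSO, 0.00759% of 13174 genes were called. Only 2 members passed the filter, and 0 were called, 1 at an unadjusted p under 0.05 (background 5.32%). That gene was Ighv1-57, with 11, 7, 7 and 7 counts in control and 23, 14, 18 and 16 in Cdk8 KO lines. Its log2 fold change was 1.24 (SE 0.30, adjusted p = 0.897, edgeR). Ighv6-3 had a log2 fold change of 0.53 (SE 0.62, adjusted p = 0.937). Under senexin B, 0% of 13010 genes and 0 of 2 members were called, 0 at an unadjusted p under 0.05 (background 1.55%). There Ighv1-57 overlapped between the genotypes, at 3 to 28 counts in control and 8 to 22 in Cdk8 KO lines, Ighv6-3 had a log2 fold change of -0.11 (SE 0.56) and Ighv1-58 of 0.93 (SE 0.78). For senexin B against DMSO in control lines, 0% of 12989 genes and 0 of 1 member were called, 0 at an unadjusted p under 0.05 (background 3.8%). Ighv6-3 had a log2 fold change of -0.09 (SE 0.42) there. In Cdk8 KO lines, 0% of 13285 genes and 0 of 5 members were called, again 0 at an unadjusted p under 0.05 (background 1.83%). The log2 fold changes were 0.30 (SE 2.20) for Ighv8-7, 0.28 (SE 2.16) for Ighv5-15, -0.74 (SE 0.73) for Ighv6-3, -0.56 (SE 0.43) for Ighv1-57 and -0.45 (SE 0.75) for Ighv1-58. Since the libraries of a line belong together, a fit with the line as a replicate block narrowed the errors to 0.23 for Ighv8-7 (log2 fold change 0.27, adjusted p = 0.738) and 0.21 for Ighv5-15 (0.27, adjusted p = 0.702), and it called 0 members. Over all alternatives the adjusted p ran from 0.468 to 1.00 for Ighv8-7 and from 0.648 to 1.00 for Ighv5-15. For the interaction, the difference of the senexin B effect between genotypes, 6 members were tested. Of these, 0 were called, 0 at an unadjusted p under 0.05, beside 0% of 14164 genes called and 0.473% at an unadjusted p under 0.05. DESeq2 gave the same counts of members at both thresholds in all 5 comparisons. At these counts only large changes were detectable, and most members could not be tested at all.

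Counts on other segments of the heavy-chain locus also differed between lines. The files list 4 J segments and 20 D segments, and 8 D segments had a count. Ighj2 had 123 and 158 counts in Cdk8 KO line 3 and 82 and 116 in line 4, against 0 to 25 elsewhere, and Ighj3 had 41 and 39 and 38 and 43 counts there, against 0 to 27 elsewhere. Ighj4 had 581 and 417 counts in control line 1, 61 and 113 in control line 2, and 111 and 142 in Cdk8 KO line 1, against 5 to 22 elsewhere. Ighj1 had 14 and 13 counts in control line 3 and 0 elsewhere. Ighd2-8 had 194 and 304 counts in control line 2, 45 and 32 in control line 4, 29 and 23 in Cdk8 KO line 1, 6 and 7 in control line 1 and 0 or 1 elsewhere. Ighd3-2 had 46 and 53 counts in Cdk8 KO line 1, 5 and 2 in control line 1 and 0 elsewhere. Counts on a D or J segment can come from unrearranged or rearranged alleles, which cannot be told apart here.

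The genes that act on the locus did not pass the limits either. In the comparisons of genotype, treatment and their interaction, 0 of 11 V(D)J recombination genes, 0 of 6 pre-B receptor genes, 0 of 16 regulators of the Igh locus and 0 of 2 constant genes were called. For genotype under DMSO, 3, 0, 1 and 0 of them were at an unadjusted p under 0.05, against 5.32% of all genes tested. Their median log2 fold changes were 0.26, 0.11, 0.14 and -0.51, beside 0.00 over all genes tested. For genotype under senexin B, 3, 0, 0 and 0 were at that threshold (all genes 1.55%), with medians of -0.03, -0.41, 0.05 and -0.74. For senexin B against DMSO they were 1, 2, 1 and 0 in control lines (all genes 3.8%). In Cdk8 KO lines they were 1, 0, 2 and 0 (1.83%), and for the interaction 0, 1, 0 and 0 (0.473%). Rag1 under DMSO had 1.61 to 3.86 CPM in control and 9.26 to 77.8 CPM in Cdk8 KO lines. Rag2 had 0.140 to 2.52 against 7.65 to 39.4 CPM. Under senexin B the ranges overlapped, at 1.22 to 13.6 against 4.07 to 123 CPM for Rag1. For Rag2 they were 0.503 to 7.86 against 1.78 to 44.9 CPM. The study's pathway analysis lists both among genes lowered without CDK8, the other direction from these values. Dntt under DMSO varied by line, at 0.924, 1.38, 10.6 and 37.6 CPM in control lines and 282, 1.81, 2.28 and 3.53 CPM in Cdk8 KO lines. Under DMSO, control line 4 and Cdk8 KO line 1 had the highest Dntt. They also had the most Ighv genes with a count, 45 and 50 against 16 to 31 in the other 6 lines. Under senexin B this did not hold. Cdk8 KO line 4 then had the most genes with a count, 41 at 4.38 CPM of Dntt, against 39 at 119 CPM in control line 4. Cdk8 KO line 1 had 36 at 51.7 CPM, and control line 3 had 24 at 48.3 CPM. Jchain, the joining chain of secreted IgM and IgA, had 109 and 60.6 CPM in Cdk8 KO line 3 and 52.1 and 51.6 CPM in line 4, against 1.61 to 12.4 CPM elsewhere. It is 1 of 5 plasma cell markers examined, and the others overlapped between these and the other lines. Prdm1 had 5.07 to 31.3 CPM in lines 3 and 4 against 0.481 to 7.61 elsewhere, and Sdc1 10.9 to 21.5 against 2.94 to 36.3. Xbp1 had 347 to 427 against 230 to 491 CPM, and Irf4 355 to 672 against 250 to 612 CPM. The part of these genes in the Ighv values was not tested.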

How the data were processed

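The members, gene lists and comparisons were chosen with earlier results of these data known. RNA was sequenced as 50-base single-end reads from 16 libraries. Per the labels and the study's methods, the authors trimmed reads with Trimmomatic, aligned them to GRCm38 with STAR and deposited raw read counts per gene from featureCounts with GENCODE M13. The deposited counts cover union exons, and the counting command names no strand option. How reads matching several Ighv genes were treated is not given in the sources used here. Whether lines came from separate animals is not stated, so p-values for genotype, treatment and interaction without a block measure the spread between these lines. The test between lines is measured against the spread between the libraries of a line. The blocked senexin B fits are measured against the spread of the change within lines. Symbols were matched by gene ID (50376 of 50686). The 185 gene models were equal in GENCODE M21, from which gene types and sequences came.

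Counts were fitted with edgeR 4.0.16 in R 4.3.3 (TMM factors, filterByExpr, quasi-likelihood test, Benjamini-Hochberg over all genes tested). The test design took the limits stated in the study's methods. Levels are CPM after TMM scaling, and ranking between genes used CPM per kb of exon. Genes were named by rule: the leading Ighv of each library, the next with at least 10 counts in both libraries of a line, the 5 of smallest p between lines, any past the limits, and the ends of the locus. Ighv14-2, Ighv14-1, Ighv1-11, Ighv8-6 and Ighv1-69 were named after their values were seen. Tests ran on simulated data first. Alternatives were DESeq2 1.42.0, RLE factors, no filter, a replicate block, left-out libraries and other scales. Python 3.11.15 and SciPy 1.17.1 gave the exact intervals, Biopython 1.88 the alignments.

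Replicate numbers paired libraries within a genotype (correlation of deviations 0.582 to 0.869 in 8 of 8 pairs). Across genotypes the numbers name different lines (-0.156 to 0.420).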

Additional observations from a re-analysis of the deposited data

Results flagged for a closer look

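Of 71 sets of 4 libraries checked, 20 held a library far from the other 3 by Dixon's ratio at the 95% level. A chance rate of 1 in 20 does not apply here. The sets share libraries, and several genes were named because they were high in a line. A set in which only 1 library has a count is always flagged.

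Control line 4 under DMSO stood apart from the other control lines in its summed Ighv level (12.4 CPM against 2.89 to 4.04), in that level without the leading gene (10.6 CPM against 2.20 to 2.52) and in genes with a count (45 against 16 to 20). Single distal genes did so as well: Ighv1-58 at 1.89 CPM, Ighv1-74 at 1.68 CPM and Ighv1-69 at 0.839 CPM.

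Cdk8 KO line 2 under senexin B stood apart by the opposite: its leading gene took 19.6% of Ighv counts against 74.8% to 79.6%, and its effective number of genes was 9.53 against 1.504 to 1.73.

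Cdk8 KO line 1 stood apart in Ighv7-1, with 11.7 CPM under DMSO and 20.4 CPM under senexin B against 0 in the other 3 lines, and in Ighv6-3 under DMSO (3.36 CPM against 0.626 to 0.761). Cdk8 KO line 4 under senexin B did so in Ighv1-57 (1.53 CPM), Ighv1-69 (0.765 CPM) and Ighv8-6 (0.974 CPM).

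The remaining values rest on 1 or 2 counts in a set otherwise at 0: Ighv8-7 in control line 3 under DMSO (0.107 CPM), Ighv5-15 in control line 1 under DMSO (0.0577 CPM), Ighv7-1 in control line 4 under DMSO (0.0699 CPM) and control line 1 under senexin B (0.0719 CPM), and Ighv5-2 in Cdk8 KO line 1 under DMSO (0.0623 CPM) and senexin B (0.0574 CPM).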

How the results depend on the processing

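The count of Ighv genes past the limits was 0 for all 5 comparisons of genotype, treatment and interaction under every alternative run, the replicate block included. Over all genes, DESeq2 called 21 genes for genotype under DMSO (1 with edgeR), 3 for genotype under senexin B and 18 for senexin B in control lines (0 with edgeR in both), no filter called 1 for genotype under senexin B and 3 for senexin B in control lines, and the replicate block called 45 in control and 7 in Cdk8 KO lines. The 45 became 538 without control line 1, 0 without line 2, 9 without line 3 and 28 without line 4, and the 7 became 31, 0, 2 and 0 without Cdk8 KO lines 1 to 4. The 1 call for genotype under DMSO became 0 with any library left out. Between lines, 7 of 10 members called became 6 of 10 with DESeq2, 13 of 87 with no filter, 3 of 7 without Cdk8 KO lines 3 and 4, and 7 to 10 with each library left out, where Ighv6-3 reached an adjusted p of 0.147 without the DMSO library of Cdk8 KO line 1 and Ighv1-69 one of 0.0899 without that of control line 4. All lines had the same leader in both libraries once family Ighv1 was left out (8 of 8, against 7). The overlap within minus between lines, 44.9 percentage points, became 28.5 without leading genes, 15.8 without Cdk8 KO lines 3 and 4 and 0.47 as a difference of Pearson correlations, which is another scale. The distal share of Cdk8 KO lines under DMSO was 40.1% without leading genes. Uncalled log2 fold changes turned sign with single libraries left out: Ighv6-3 ranged from -0.42 to 0.87 for genotype under DMSO, -0.77 to 0.18 under senexin B, -0.39 to 0.25 for senexin B in control and -1.41 to 0.22 in Cdk8 KO lines, where Ighv1-58 ranged from -0.81 to 0.36, Ighv5-15 from -0.61 to 1.16 and Ighv8-7 from -0.47 to 1.11. Ighv6-3 became 0.32 for genotype under senexin B without Cdk8 KO lines 3 and 4 and 0.34 in control lines with a block and without line 1, and Ighv1-58 became 0.24 in Cdk8 KO lines with a block and without line 1. The causes were not tested. The alternatives without lines 3 and 4, without single lines under the block, and without single libraries for the interaction and the line test were chosen after seeing the data. Depth limits most members: 98 were at 0 throughout.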
